A study of Drosophila melanogaster with 4 samples.

Results

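The peaks described here are those that Stat92E-GFP chromatin immunoprecipitation gave in and near the pericentromeric heterochromatin of Drosophila melanogaster embryos. They were chosen by position alone in release 5 of the fly genome. A peak was taken if it lay on 2LHet, 2RHet, 3LHet, 3RHet, XHet or YHet, which hold heterochromatic sequence assigned to a chromosome arm or to the Y, or on U, the unplaced scaffolds. It was also taken if its midpoint lay at or beyond 21000000 on 2L, at or beyond 22500000 on 3L, or at or below 2000000 on 3R. The rule sets no such stretch on 2R or X. It gave 214 of the 2380 peaks of the list, or 8.99% (exact 95% interval 7.87 to 10.2%). Of these, 23 form a compact block on 2L that is described apart, and 191 lie elsewhere.

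The study had 4 libraries from embryos labelled 12 to 24 h. The ChIP group (2 libraries) was made with ab290, a rabbit polyclonal antibody raised against GFP, and the input group (2 libraries) is chromatin DNA taken without precipitation. Both groups carry the same labels otherwise: strain Stat92E-GFP, genotype PBac{y[+]-attP-3B}VK00037, and a transgene with the genomic coding region of Stat92E. The shared protocol text names a different line, y; bw cn sp, and an egg laying of 12 h, so genotype and stage are given as the sample labels state them. The labels do not say whether the embryos also kept their own untagged Stat92E, or whether replicates came from separate collections.

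Stat92E is the fly's STAT transcription factor, which the kinase Hopscotch phosphorylates after the receptor Domeless binds an Unpaired cytokine, and which then acts in the nucleus on target genes. In Drosophila, unphosphorylated Stat92E is also known to associate with the heterochromatin protein HP1. Pericentromeric heterochromatin flanks the centromeres, is rich in transposons and satellite repeats, has few genes, and is packed with nucleosomes methylated on histone H3 lysine 9. Short reads are hard to place there, because many of its sequences occur in several copies.

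The deposited data were 1 list of peaks with a start, an end and a score for each. The score is the value of the authors' peak caller, and its scale is not given in the sources used here (it could be a transformed p-value, an enrichment or a read height), so it served only to rank and describe peaks within this list. Values per library are not part of the list. Depth and replicate spread are therefore unknown, and no peak can be compared between ChIP and input. Intervals below cover counting error only and treat neighbouring peaks as independent, which they may not be. Whether the peaks lay in heterochromatin in these embryos was not measured: the name comes from the assembly, and for U, whose scaffolds have no assigned chromosome, not even that is given. No genome sequence or gene annotation of release 5 was used here, so no peak is given a gene, a repeat or a sequence.

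Most of the peaks scored below the list's median, with a long upper tail on a few sequences. Of the whole list, 57.1% lay on Uextra, the lower-quality unplaced scaffolds, whose 1358 peaks had a median score of 77.3. The 191 peaks outside the block had a median score of 19.1 (exact 95% interval of the median 16.1 to 25.1, interquartile range 12.3 to 50.5), beside 43.0 over all 2380 peaks and 15.0 for the 739 main-arm peaks (2L, 2R, 3L, 3R and X) away from these stretches. Of the 191, 97 scored under 20, or 50.8%, where 30.6% of the whole list did. Of those main-arm peaks 67.3% did, and of the Uextra peaks 6.85%. At the other end, 25 scored 100 or more, or 13.1%, where 23.7% of the list did. The share was 1.08% of those main-arm peaks and 38.7% of the Uextra peaks. Of these 25, 20 lay on U, 2 on YHet and 1 each on 2LHet, 3LHet and 3RHet, and none lay on the bases of 2L, 3L or 3R.

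**Figure D1:**
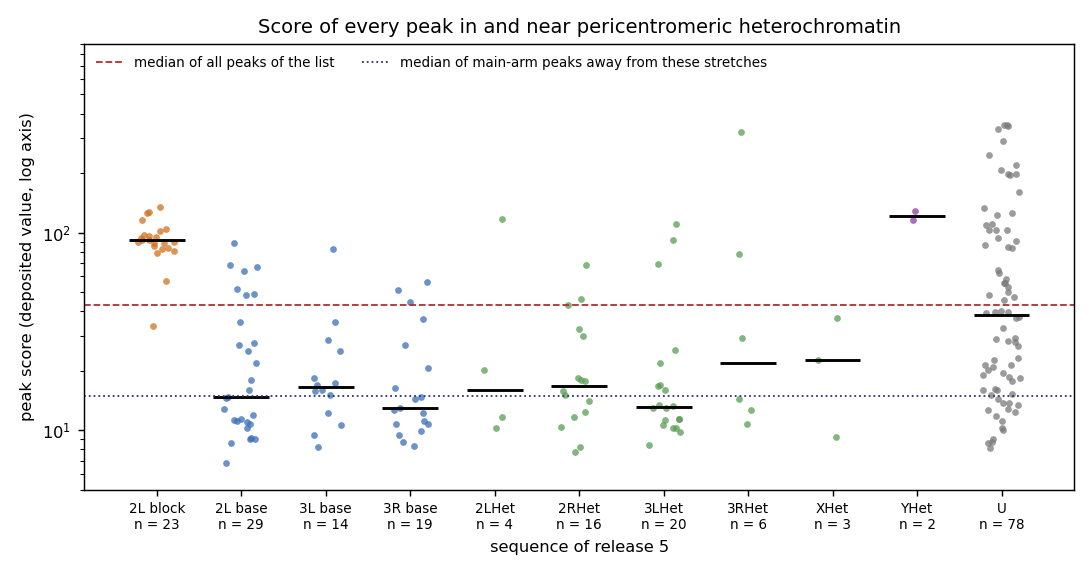
Each point is 1 peak, placed by its sequence (horizontal) and its deposited score (vertical, log axis). Black bars are medians, the dashed line is the median of all peaks (43.0) and the dotted line that of main-arm peaks away from these stretches (15.0). The 2L block clusters near 92.1, U spreads from 8.14 to 350.79, and most other groups centre near the dotted line.

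The arm bases, the stretches of 2L, 3L and 3R next to the centromere, held 62 peaks outside the block. Their scores ran from 6.79, the lowest score of the whole list, to 88.78, with a median of 14.88 (interval 12.1 to 18.4). The 398 peaks on the rest of the same arms had a median of 14.45 (interval 13.3 to 15.6), a difference of 0.43 score units within overlapping intervals. A larger share of the base peaks lay above the list's median. Of the 62 peaks there, 11 scored above the median of the whole list, or 17.7% (exact interval 9.20 to 29.5%), against 30 of the 398, or 7.54% (interval 5.14 to 10.6%). By definition 49.9% of all peaks of the list did so. Of the 11, 7 lay on 2L, 3 on 3R and 1 on 3L. None of the 62 exceeded the list's upper quartile (exact interval 0 to 5.78%), which 25% of the list and 7 of the 398 (1.76%, interval 0.710 to 3.59%) did. In both comparisons the intervals overlap, and with no replicate values neither difference was tested.

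On 2L the 29 base peaks outside the block had a median score of 14.7, on 3L the 14 had 16.5 and on 3R the 19 had 12.9. The highest on 2L, at 21020440 to 21023836, scored 88.78 and at 3397 bp was also the widest of the 191. On 3L the highest, at 22736867 to 22737818, was 952 bp wide and scored 82.75. On 3R it lay at 159635 to 160399, was 765 bp wide and scored 56.16. The 2L and 3L peaks are also the first inside their boundaries. The nearest peak outside scored 46.15 on 2L (19791058 to 19791654) and 14.72 on 3L (22451716 to 22452040). On 3R the nearest inside scored 20.64 (1473735 to 1474264) and the nearest outside 29.54 (2644990 to 2645623). On 2L and 3R the boundaries thus fall in long stretches without peaks.

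Peaks were denser at the base of 2L than on the rest of that arm, and the other bases showed smaller ratios. Without the block, the base of 2L held 29 peaks in 1.96 Mb, or 14.8 per Mb (exact Poisson interval 9.90 to 21.2), against 5.67 per Mb on the rest of the arm (interval 4.70 to 6.79). The ratio was 2.61 (exact interval 1.67 to 3.94). The base of 3R held 19 peaks, 9.56 per Mb against 5.79, a ratio of 1.65 (interval 0.967 to 2.67). The base of 3L held 14 peaks, 6.89 per Mb against 5.74, a ratio of 1.20 (interval 0.638 to 2.09). The intervals of 3L and 3R include 1. The boundaries were set by position with earlier results of these data known. The ratios thus describe that cut, and their intervals are no test of it. With peaks within 1 kb merged, the ratios were 2.54 on 2L, 1.76 on 3R (interval 1.01 to 2.90) and 1.28 on 3L. These lengths run from the boundary to the outermost peak of each arm, since arm lengths of release 5 were not used.

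The peaks were not spread evenly over the bases. On 2L, bins of 0.5 Mb counted from the boundary towards the centromere held 3, 7, 14 and 5 peaks, and the 2 bins just outside the boundary held none. On 3R the bin next to the boundary was empty on either side, and the next bins inwards held 4, 7 and 8 peaks. On 3L the bins held 4, 4, 2, 2 and 2 peaks inside and 2 and 2 in the nearest bins outside, so no step was seen at that boundary. The fullest bin of 2L had a median score of 11.6, below the 14.5 of the bin before it.

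**Figure D2:**
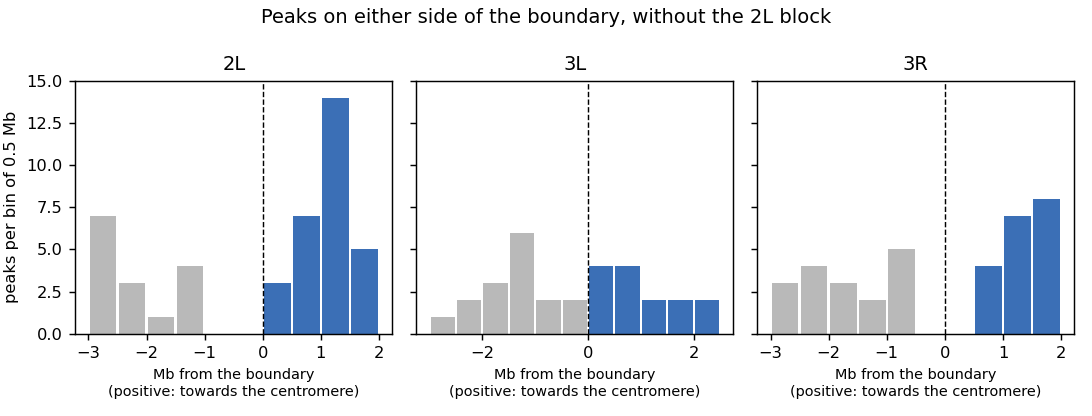
Bars give the number of peaks in bins of 0.5 Mb (vertical) by distance from the boundary of the rule in Mb (horizontal, positive towards the centromere) on 2L, 3L and 3R, with the 23 peaks of the 2L block left out. Blue bars are inside the boundary, grey bars outside, and the last blue bin of each arm reaches past its last peak. Counts climb inside the boundary on 2L (up to 14) and 3R (up to 8) and stay at 2 to 4 on 3L.

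On 2L, 10 of the 29 base peaks outside the block had a neighbour within 1 kb. With such neighbours merged, the density ratio of 2L was still 2.54 (interval 1.54 to 4.03). On placed sequence, the densest window of 100 kb outside the block, 22100001 to 22200000 on 2L, held 9 peaks with scores from 8.57 to 68.27. In it, 3 neighbouring peaks at 22118894 to 22121918 covered 92.5% of 3025 bp and scored 66.58, 68.27 and 48.45, and a trio at 22168724 to 22169895 scored 8.57, 27.74 and 10.95. A stronger and a weaker group thus lay in 1 window. The densest placed window after it was 2200001 to 2300000 of 3LHet, with 6 peaks, and the next rank was shared by 22200001 to 22300000 of 2L and 1900001 to 2000000 of 3LHet, with 4 peaks each. After this crowded part, 2L held a pair at 22736139 to 22737180 and 22739867 to 22740317 with like scores of 48.96 and 52.02, and its last peaks, at 22886424 and 22961215, scored 11.41 and 14.72.

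The heterochromatic sequences assigned to arms held 49 peaks with a median score of 15.0 (interval 12.6 to 18.4), beside 14.9 on the arm bases. Of the 49, 8 scored above the list's median, or 16.3% (interval 7.32 to 29.7%). The 20 peaks of 3LHet had a median score of 13.0 and the 16 of 2RHet 16.7, and the 6 of 3RHet, with 21.8, are too few to rank against them. On 2RHet, 3LHet and 3RHet the highest peak lay far above the median.

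The highest was on 3RHet at 2308122 to 2308663, a peak of 542 bp with a score of 322.43. The other 5 peaks of 3RHet scored 77.54, 29.10, 14.41, 12.57 and 10.72. On 3LHet, a pair at 2244795 to 2246177 and 2246399 to 2247243 scored 111.04 and 91.51 and was followed by 69.41, at 1396381 to 1397095. The other 17 peaks of 3LHet scored 25.56 or less. The highest peak of 2RHet, at 202096 to 203127, scored 68.72 and was 1032 bp wide. The 16 peaks of 2RHet lay towards its ends: 7 before 684307 and 9 after 2779089, with 2095 kb between them that held no peak.

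The short sequences 2LHet and XHet held 4 and 3 peaks. On 2LHet the peak at 367982 to 368870 scored 117.65, and those at 33239, 34367 and 124209 scored 11.69, 20.14 and 10.29, so 1 peak stood far above the rest. On XHet the peak at 174 to 627, close to the start of the sequence, scored 36.95, and the neighbours at 75114 to 75315 and 75643 to 76454 scored 9.22 and 22.76. None of the 3 exceeded the list's median.

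YHet, from the Y chromosome, which is largely heterochromatic, held 2 peaks, both with high scores. The peak at 4477 to 4811 was 335 bp wide and scored 127.90, and the peak at 137056 to 137527 was 472 bp wide and scored 115.83. Only 408 and 461 of the 2380 peaks scored higher. Both exceeded all 62 peaks of the arm bases, and of the 49 on heterochromatic arm sequence 47 scored below both, 1 between them and 1 above both.

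U held 78 peaks, more than any other sequence of the rule, and their scores spread most widely. The lowest score was 8.14, the median 38.3 (interval 22.7 to 55.4) and the highest 350.79. Of the 78, 25 scored under 20, or 32.1% (30.6% of the list), and 20 scored 100 or more, or 25.6% (23.7% of the list), so the shares in both tails were near those of all peaks. High scores were not particular to U. On Uextra the median was 77.3 and the highest score 498.08, with 6.85% under 20 and 38.7% at 100 or more. Of the 10 highest peaks outside the block, 9 lay on U. They were led by the peaks at 9538421 to 9538962 (542 bp, score 350.79), 7934208 to 7935009 (802 bp, score 349.03), 1941120 to 1942194 (1075 bp, score 345.40) and 4621091 to 4621910 (820 bp, score 334.87).

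The next on U were the peaks at 8609321 to 8609774 with a score of 291.23, at 2769211 to 2769772 with 247.16, at 2293397 to 2293928 with 218.56, at 9151090 to 9151618 with 208.20 and at 5528410 to 5529075 with 197.45. These 5 were between 454 and 666 bp wide, against an upper quartile of 529 bp over all peaks of U. The highest score on any main arm was 153.34, and 12 peaks of U and 1 of 3RHet exceeded it. The peak with the highest score on U ranked 14 in the whole list.

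On U, the median score was higher for peaks that stood alone than for peaks with a neighbour within 1 kb, and 1 group of peaks carried part of this. The 58 that stood alone had a median score of 55.6 (interval 32.9 to 90.6), and the 20 with a neighbour had 15.6 (interval 13.4 to 29.0). All 20 peaks of U with a score of 100 or more stood alone, where 1718 of the 2380 peaks of the list did. On the main arms away from these stretches, 6 of the 8 peaks with such scores stood alone, and the count on Uextra was not made. Of the 20 on U, 18 also had no neighbour within 10 kb. The largest group on that wider limit lay at 1077352 to 1098488, where 11 peaks within 21.1 kb scored between 8.14 and 26.64. It held 9 of the 20 peaks with a neighbour. Without the group, the other 11 had a median of 29.0 (interval 14.4 to 48.5) and the 56 that stood alone 57.0 (interval 36.95 to 94.16), and these intervals overlap. Peaks that stood alone were also wider, with a median of 402 bp against 301 bp, and the part of width in the score difference was not tested. Positions on U join unrelated scaffolds, so a gap there can span a scaffold end.

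On placed sequence the medians lay closer together. Of the 113 placed peaks outside the block, 79 stood alone with a median score of 16.4 (interval 14.5 to 21.9) and 34 had a neighbour, with 12.0 (interval 10.7 to 17.0). These intervals overlap. On the main arms away from these stretches the medians were 14.95 for 563 peaks alone and 14.98 for 176 with a neighbour. The share with a neighbour within 1 kb was 28.3% of the 191, and 27.8% of the list, so the shares were close.

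The 54 peaks with a neighbour formed 24 runs, 18 of them pairs and 6 trios. The highest and lowest scores of a run differed by 5.26 score units at the median, and by less than 10 in 17 of the 24. The smallest difference, 0.30, was that of a pair on 3LHet at 593435 to 594426 with 12.87 and 13.17, and the largest, 24.24, was that of a trio on U at 7871186 to 7872465. The 54 peaks had a median score of 13.4, so a small difference in units need not mean a close match. The ratio of highest to lowest score in a run was 1.33 at the median and reached 3.24, in the 2L trio at 22168724. Differences between unrelated peaks were not computed. Of the 24 runs, 3 had a lowest score above the list's median of 43.0, which 56 of the 191 peaks exceeded. These runs were the 2L trio at 22118894, the 3LHet pair at 2244795 and a pair on U at 8633448 to 8634569 with 45.47 and 53.05. The matching count over all runs of the list was not made.

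Outside the block, wider peaks scored higher, as on the main arms. The Spearman correlation between width and score was 0.646 across the 113 placed peaks outside the block, 0.640 across the 78 of U, and 0.672 across the 739 main-arm peaks away from these stretches. These values describe peaks that share the same libraries, and a caller's score and width come from the same pileup. Over all 214 peaks, block included, the Spearman correlation was 0.642. Within the 23 block peaks it was 0.177, and the Pearson correlation of their log2 values was 0.800. Over the 33 among the 25% highest scores of the list, the Spearman correlation was -0.071. Selection by score narrows the range of scores, and 8 of the 33 are block peaks. What lowered the correlation was not tested. Within classes of width the median score was higher on U. For widths of 300 to under 500 bp the median score was 54.4 on U (28 peaks), 15.5 on placed sequence (48 peaks) and 15.6 on the main arms (258 peaks). Under 300 bp the medians were 16, 10.9 and 11.2 in the same order, and 500 bp and over they were 87.0, 39.1 and 29.1.

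**Figure D3:**
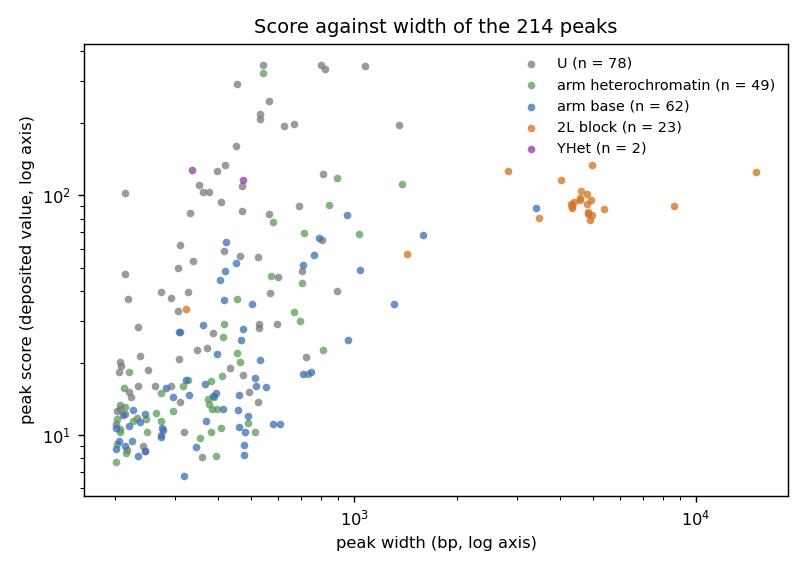
Each of the 214 peaks is placed by its width (horizontal, bp, log axis) and its deposited score (vertical, log axis), coloured by kind of sequence. Points of U overlap those of the arm bases at low scores and reach far above them, up to 350.79 against 88.78, and the 2L block sits apart at widths near 4604 bp with scores near 92.1.

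Many scores on placed sequence near the centromeres were exactly equal to that of another peak in the list, to the 2 decimals deposited. This held for 75 of the 113 placed peaks outside the block, or 66.4%, against 45.3% of the whole list. Equal scores are more common among low scores, so the shares were also taken among peaks under 20. There, 53 of 72 placed peaks shared a score, or 73.6% (exact interval 61.9 to 83.3%), against 261 of 497 on the main arms, or 52.5% (interval 48.0 to 57.0%), and 84 of 93 on Uextra, the lower-quality unplaced scaffolds, or 90.3% (interval 82.4 to 95.5%). Heterochromatic arm sequence had 81.2% (26 of 32, interval 63.6 to 92.8%) and the arm bases 67.5% (27 of 40, interval 50.9 to 81.4%). On U the share was 60% (15 of 25, interval 38.7 to 78.9%). The intervals of U and of the arm bases include both the 52.5% of the main arms and the 73.6% of the placed peaks. The score of 10.29 alone occurred 16 times in the list, among them 5 of these peaks, on 2L, 2LHet, 3LHet and U. Read or input counts per peak were not used here, so what sets these repeated values was not tested.

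The block on 2L ran from 21416413 to 21543672. Its 23 peaks were 10.7% of the 214 but held 55.9% of the sequence they cover, 111.3 kb of 199.2 kb. They were wide and mostly of like score. The median width was 4604 bp, against 394 bp for the other 191. Scores ran from 33.63 to 134.19 with a mean of 92.7 ± 21.4 (SD across the 23 peaks, which are not replicates), and 14 of the 23 lay between 80 and 100. Of the 23, 22 were wider than the list's upper quartile of width, or 95.7%, where 25% of the list and 32 of the other 191 (16.8%) were. By score, 22 exceeded the list's median (49.9% of the list) and 8, or 34.8%, its upper quartile (25% of the list). The peak before it, at 21405663 to 21406085, was 10.3 kb away, 423 bp wide and scored 64.11, and the peak after it, at 21572588 to 21573898, was 28.9 kb away, 1311 bp wide and scored 35.11.

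Within the block, most peaks followed each other at a similar step. The median distance from one start to the next was 5030.5 bp, and 13 of the 22 distances lay within 5% of it, from 4837 to 5151 bp. Of the other 9, several added up to the step or held it more than once, as measured against 5032 bp, the median of those 13. The widest peak, at 21421004 to 21436034, was 15031 bp wide and 2.99 steps long, and the distance from its start to the next start was 15081 bp, or 3.00 steps. The peak at 21530935 to 21539536 was 8602 bp wide, and its next start lay 1.97 steps on. The short peaks at 21501263 to 21502690 and 21502754 to 21506217 together spanned 4955 bp, and from the first of them to the start of the next peak was 5071 bp. The smallest peak, at 21485709 to 21486030, was 322 bp wide with the lowest score of the block, 33.63. The distance across it, from the start before to the start after, was 4768 bp, below the shortest of those 13, 4837 bp. The longest break, 9318 bp between 21440922 and 21450241, did not keep to the step, since it and the peak before it spanned 2.81 steps. Nor did the first peak of the block, with 4591 bp to the next start (0.912 steps), or the peak at 21460370 to 21465760, with 5869 bp (1.17 steps).

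The step differed in length between parts of the block. Near its middle, the peaks starting at 21466239, 21471288 and 21476322 were 4575, 4567 and 4604 bp wide, with steps of 5049, 5034 and 5042 bp and gaps of 474, 467 and 438 bp. Near its far end, those starting at 21516395, 21521249 and 21526086 were 4338, 4319 and 4332 bp wide, with steps of 4854, 4837 and 4849 bp and gaps of 516, 518 and 517 bp. Widths thus varied by 37 bp within the first trio and by 19 bp within the far one, while the mean steps, 5042 and 4847 bp, differed by 195 bp. The trios were picked after the values were seen, so this difference is a description. Between them, the peaks starting at 21506334 and 21511363 had steps of 5029 and 5032 bp but gaps of only 95 and 80 bp, so the same step occurred with different gaps. Scores of the first trio were 95.16, 97.35 and 104.39 and those of the far trio 88.74, 92.07 and 90.06.

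**Figure D4:**
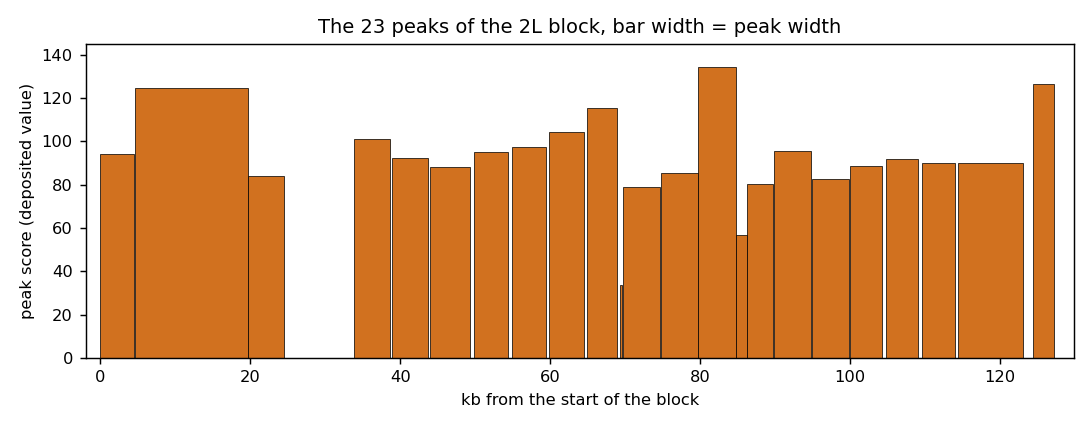
Bars are the 23 peaks of the 2L block, placed by distance from the block's start in kb (horizontal) and as wide as the peak, with the deposited score as height. Most bars follow at a step near 5032 bp and lie near 92.1 in height. One bar is 15031 bp wide, and the longest break is 9318 bp.

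In the fly, the replication-dependent histone genes, which supply histones to newly made DNA, form a tandem array towards the base of 2L, and their repeat unit is known in a longer and a shorter form. In the release 6 gene table of RefSeq, 111 such genes of 5 families are all on 2L: 23 of His1, 23 of His2B, 20 of His2A, 22 of His4 and 23 of His3. They follow each other in the order His1, His2B, His2A, His4, His3 in 19 complete sets, with no other protein-coding gene between the first and the last. That table is of another genome build than the peaks, so its positions were not compared with the block, and whether the block covers the array was not tested. A tandem array also means that a read may fit several copies, and how the authors treated such reads is not given in the sources used here.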

How the data were processed

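Chromatin immunoprecipitation with an antibody against GFP was followed by sequencing (2 ChIP and 2 input libraries). Cross-linking took 15 min in 1.8% formaldehyde, per the labels' protocols. CASAVA (1.7.0.2 and 1.7.0.3), BWA, MACS2 and the build BDGP5 are named in the submitters' processing notes. Per the file headers, coordinates are of FlyBase release 5, counted from 1. The deposited peak list has 1 score per peak. Not given in the sources used here are its scale, the calling threshold, the treatment of reads with several matches and the pooling of replicates. Reads shared between repeat copies could raise or lower peaks in heterochromatin.

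The deposited start, end and score of each peak were used as they stand. Peaks were assigned by midpoint. Runs were peaks at most 1 kb apart, and windows were 100 kb. Shares and ratios have exact (Clopper-Pearson) intervals, densities exact Poisson intervals and medians exact order-statistic intervals, all at 95%. No test was made, because the list has no replicate values and peaks are not replicates. The functions were tested on simulated data. Python 3.11.15, pandas 2.3.3 and scipy 1.17.1 were used.

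The peaks described, and the sets compared, were chosen with earlier results of these data known. Named were the 10 highest and 5 widest outside the block, the highest of each sequence, all peaks of sequences with 5 or fewer, the 3 densest windows, the peaks next to each boundary and peaks of the block. Other peaks named, the runs and the equal scores were chosen after their values were seen. Alternatives were stricter score limits, other boundaries and merging, means, and removal of the block or of U.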

Additional observations from a re-analysis of the deposited data

How the results depend on the processing

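Of 38 values recomputed for 8 results, 17 fell inside the 95% interval around the value reported. These include all 6 values from moving the boundaries by 0.5 Mb for the share, scores and widths, and both for density. The 4 that leave out the block together with another choice, or leave it out of the density, and the 1 that leaves out the largest group of U, were added after seeing the data. With only the 50% and the 25% of all peaks with the highest scores, the share of the list was 6.63% and 5.55%, the median score 90.6 and 126.6 (which the selection itself raises), the median width 711 and 624 bp, and the density ratio of the 3 bases, 2.48 over all peaks, 12.8 and 13.3. Without the block that ratio was 1.81, and 4.25 among the highest 50%. Among the highest 25%, the bases held 8 block peaks and 0 of the other 62, against 7 of the 398 on the rest of the 3 arms. The 13.3 thus rests on the block alone. Over all peaks, the density ratio was 1.93 and 1.71 with peaks within 1 kb and 10 kb merged, and 1.83 with the block left out and 1 kb merged. The median score, 22.9 over all the peaks described, was 17.8 without U and 15.0 without U and the block. Means were 52.7 for score and 931 bp for width. The share of placed peaks with a neighbour, 30.1%, was 20.4% within 500 bp and 0% among the highest 25%. The correlation of score with width, 0.642, was 0.104 and -0.071 in the highest 50% and 25%, and the cause was not tested. No paired analysis was possible because the list has no values per library, and no replicate could be left out for the same reason. Sequencing depth is unknown.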
